A study of Homo sapiens with 12 samples.

Results

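The HOXA posterior gene cluster is the part of the human HOXA locus that holds the 7 genes HOXA5, HOXA6, HOXA7, HOXA9, HOXA10, HOXA11 and HOXA13. It was taken here as all called regions that overlap chromosome 7 from 27175000 to 27260000 (build hg19, 85 kb), and the neighbouring stretch from 27130000 to 27175000 (45 kb), the anterior part, served for comparison. The locus was selected on a pattern of these lists, a very wide H3K4me3 region found in both cell lines, so the length and sharing of its regions are a description and were not tested. Of 262931 regions in all 10 lists, 48 overlap the posterior window, 20 from SW480 and 28 from SW620. The anterior window holds 36, of which 4 cross into the posterior window and are counted in both.

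SW480 and SW620 are established human colorectal adenocarcinoma cell lines, labelled Dukes' type B and Dukes' type C. Both were grown untreated in DMEM with serum, and the labels name no other difference between the groups. In each line, chromatin immunoprecipitation followed by sequencing was done for 4 histone marks (H3K4me3, H3K27ac, H3K4me2, H3K36me3) and for the factor FOXA2, with 1 library per antibody and line and an input library per line. Depth ran from 12791745 tags (H3K4me3, SW620) to 47867295 tags (H3K27ac, SW620). The share of tags in regions was 58.51% in SW480 against 27.51% in SW620 for H3K27ac, and 73.03% against 52.0% for H3K4me3. SW620 had the higher share for the other antibodies. In the same order of lines these were 45.81% against 50.73% for H3K4me2, 32.79% against 35.2% for H3K36me3, and 0.59% against 2.25% for FOXA2. With 1 library per group, no difference between the lines below has a replicate check, and no p-value is given. The deposited lists give positions and no usable signal, so a region listed in one line alone may lie just under the caller's threshold in the other.

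HOX genes encode homeodomain transcription factors that specify position along the body axis, and their order on the chromosome follows the order of the body regions in which they act. In the gut the more posterior genes are known for hindgut and colon identity. H3K4me3 marks promoters, H3K4me2 promoters and enhancers, and H3K27ac active promoters and enhancers, while H3K36me3 is laid down over transcribed gene bodies. At most promoters H3K4me3 forms a narrow region, and HOX clusters are known for domains that run across several genes.

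In the RefSeq table (GRCh38.p14) the members come in the order HOXA5, HOXA6, HOXA7, HOXA9, HOXA10, HOXA11, HOXA13, followed by HOTTIP, EVX1-AS and EVX1. Other entries lie among the members, HOXA10-HOXA9 and HOXA10-AS between HOXA9 and HOXA10, and HOXA11-AS between HOXA11 and HOXA13. HOXA5 is known for lung and foregut patterning, HOXA6 and HOXA7 for the trunk, and HOXA9 for blood stem cells and leukaemia. HOXA10 and HOXA11 act in the uterus and HOXA13 in the hindgut, limb and genital tract. Between HOXA9 and HOXA10 lies MIR196B, the gene of a microRNA known to target HOX transcripts. HOTTIP is a long noncoding RNA known to act on the HOXA genes at that end. HOXA6 to HOXA13 are read from the minus strand in the RefSeq promoter table, that is, from the HOXA13 end towards the HOXA5 end. Because that table is on another build than the lists, regions below are placed by hg19 position and by distance from the HOXA5 end of the window, and no covered length per gene was computed.

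The members' promoter sequences, from 250 bases before to 50 after a start site, differ widely in their content of CG dinucleotides, which are dense in CpG island promoters. The table held 7 promoters of 6 members, HOXA6, HOXA7, HOXA9, HOXA10 (2 promoters), HOXA11 and HOXA13. They hold between 13 and 44 CG dinucleotides with a median of 25, against a median of 14 over 35116 promoters, and 6 of the 7 lie above that median, with HOXA11 just under it. Of these, 3 are printed 5′ to 3′ with each CG in capitals, HOXA13 and HOXA11 as the richest and the poorest of the 7 and HOXA9 as a promoter with the letters of a TATA box and of a caudal-type motif. These 3 were chosen after the values were seen. They come from RefSeq, build GRCh38.p14, minus strand, at chr7:27200042-27200341 for HOXA13, chr7:27165488-27165787 for HOXA9 and chr7:27185183-27185482 for HOXA11.
HOXA13: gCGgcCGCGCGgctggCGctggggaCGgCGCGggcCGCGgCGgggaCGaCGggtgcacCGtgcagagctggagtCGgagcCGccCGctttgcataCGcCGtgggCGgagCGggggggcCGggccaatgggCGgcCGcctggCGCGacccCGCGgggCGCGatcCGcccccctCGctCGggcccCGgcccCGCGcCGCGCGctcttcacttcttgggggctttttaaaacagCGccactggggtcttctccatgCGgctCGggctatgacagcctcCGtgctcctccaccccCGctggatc
HOXA9: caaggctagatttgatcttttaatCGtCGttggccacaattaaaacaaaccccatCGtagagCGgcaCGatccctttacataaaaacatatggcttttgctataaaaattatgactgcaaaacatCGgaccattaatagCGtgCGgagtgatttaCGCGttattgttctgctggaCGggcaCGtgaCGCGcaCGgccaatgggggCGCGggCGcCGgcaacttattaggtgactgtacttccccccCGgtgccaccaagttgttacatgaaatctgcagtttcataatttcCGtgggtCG
HOXA11: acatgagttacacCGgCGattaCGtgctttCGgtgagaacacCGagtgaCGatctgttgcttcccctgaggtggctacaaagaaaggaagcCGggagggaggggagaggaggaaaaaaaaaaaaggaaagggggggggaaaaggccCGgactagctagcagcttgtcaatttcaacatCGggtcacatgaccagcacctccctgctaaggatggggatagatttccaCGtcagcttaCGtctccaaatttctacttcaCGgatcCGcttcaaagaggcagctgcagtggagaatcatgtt
HOXA13 has 44 CG dinucleotides and 76.3% G and C, and 4.19% of all promoters have as many CG. HOXA9 has 22 CG, a number that 37.7% of all promoters reach, and 48.0% G and C, the lowest of the 7. HOXA11 has 13 CG, which 51.7% of all promoters reach. HOXA7 (31 CG) and HOXA6 (29 CG) lie between, as do both HOXA10 promoters (25 and 21 CG). The TATA box letters TATAAA were found, on either strand, in 3 of the 7 member promoters (HOXA9 and both of HOXA10) and in 11.5% of all promoters. The caudal-type letters TTTATNG, for the intestinal CDX factors, were found in 2 of the 7 (HOXA9 and 1 of HOXA10) and in 9.73% of all. The forkhead letters TGTTTAC were found in none of the 7 and in 3.42% of all, which says only that these letters are not in these windows. In both promoters with a caudal-type match, that match overlaps the TATAAA match on the opposite strand, so the 2 motifs there are not separate sequences. A match is a description of letters, not a site.

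Each active mark covered between 50.1% and 65.7% of the posterior window in either line. In SW480, H3K4me3 covered 46.3 kb (54.4% of the window), H3K27ac 50.8 kb (59.7%) and H3K4me2 55.8 kb (65.7%). In SW620, H3K4me3 covered 42.5 kb (50.1%), H3K27ac 44.3 kb (52.1%) and H3K4me2 51.6 kb (60.8%). Over chromosome 7 as a whole these marks covered between 1.23% and 2.73%, so the window was covered 22.3 to 40.7 times as densely. H3K36me3, the mark of transcribed bodies, covered only 4.56 kb in SW480 and 4.09 kb in SW620, which is 1.14 and 1.13 times its chromosome share. All 4 histone marks covered more of the window in SW480, with SW620 minus SW480 at -3.74 kb for H3K4me3, -6.52 kb for H3K27ac, -4.2 kb for H3K4me2 and -0.471 kb for H3K36me3. As ratios of SW620 to SW480, in the same order, these were 0.919, 0.872, 0.925 and 0.897. Over all chromosomes the ratios were 0.895, 0.87, 1.08 and 0.934, so for all but H3K4me2 the SW480 list was the longer there too.

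**Figure D1:**
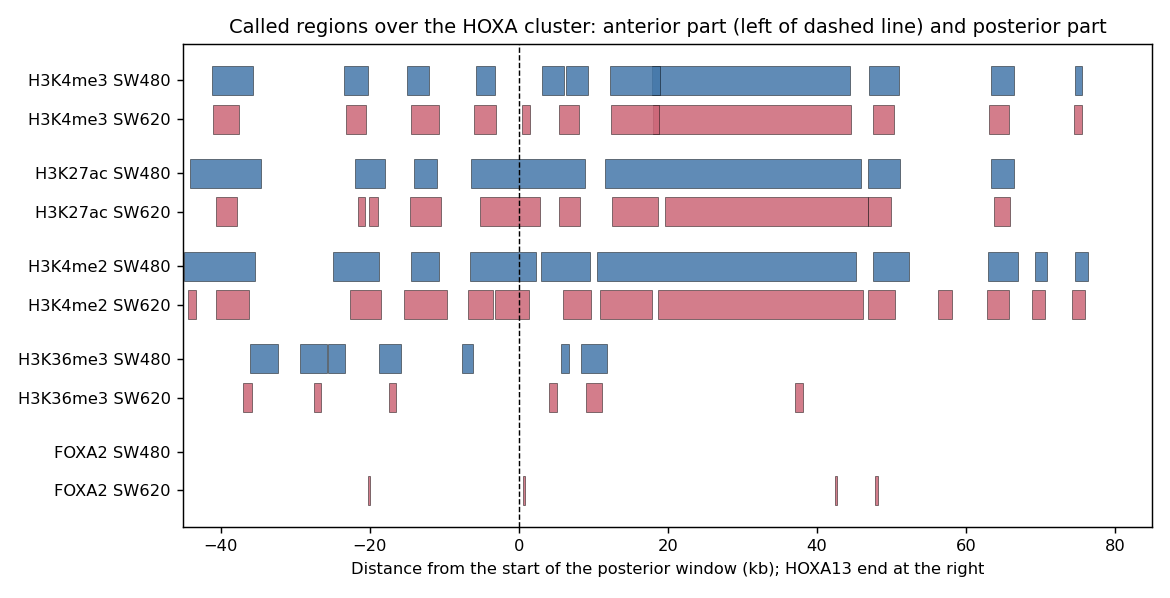
Called regions of the 10 lists over the anterior part (left of the dashed line) and the posterior part of the HOXA cluster, by distance in kb from the start of the posterior window, with the HOXA13 end at the right. Each bar is 1 region, blue for SW480 and red for SW620, and FOXA2 peaks are drawn at least 0.3 kb wide. The active marks form a nearly continuous block in the middle of the posterior window in both lines, and FOXA2 peaks appear in SW620 alone.

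The window was also set against 36377 tiles of 85 kb laid end to end over the chromosomes, and few or none held as much of the active marks. No tile had as much H3K4me3 as the window in either line. For H3K4me2 this was 0 tiles in SW480 and 3 in SW620, and for H3K27ac 5 and 13. In tiles with any H3K4me3 the median covered length was 2.78 kb in SW480 and 2.68 kb in SW620. H3K36me3 was different, with 18.2% of tiles in SW480 and 17.6% in SW620 holding at least as much as the window. The locus was selected for its very wide H3K4me3 region. The tiles start at fixed steps and split this cluster between them, while the window was set around it. These counts are therefore descriptive, and nothing is read from them.

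The middle of the window was covered without a break by H3K4me3 in both lines, and its ends nearly coincided. The widest H3K4me3 region ran from 27192922 to 27219470 in SW480 and from 27193016 to 27219570 in SW620, so the starts lay 94 bp apart and the ends 100 bp apart. By width it was number 2 of 18296 regions in SW480 and number 1 of 16315 in SW620. In both lists a second region, 6727 bp wide in SW480 (27187250 to 27193976) and 6417 bp in SW620 (27187423 to 27193839), overlapped its HOXA5-side end, by 1055 and 824 bp. Joined, they made a block of 32.2 kb in SW480 and 32.1 kb in SW620. Of the 17 bins of 5 kb in the window, the same 5, from 15 to 40 kb after its start, were fully covered by H3K4me3 in both lines.

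H3K27ac and H3K4me2 covered the same stretch, as 1 region each in SW480 and as 2 each in SW620. The SW480 H3K27ac region was 34.4 kb wide (27186541 to 27220921) and the SW480 H3K4me2 region 34.8 kb (27185486 to 27220302). SW620 had H3K27ac regions of 6171 bp (27187565 to 27193735) and 27.2 kb (27194675 to 27221831), with 939 bp between them. Its H3K4me2 regions were 6921 bp (27185917 to 27192837) and 27.5 kb (27193701 to 27221203), with 863 bp between them. Both breaks fall near the place where the pair of H3K4me3 regions overlap. The 34.4 kb region is the fourth entry of the SW480 H3K27ac list. The sources used here do not say whether list order follows signal. In the SW480 H3K4me2 list and the SW620 H3K4me3 list the widest member stands at position 2, and in the SW480 H3K4me3 and SW620 H3K4me2 lists at position 3. In the SW620 H3K27ac list it stands at position 14.

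**Figure D2:**
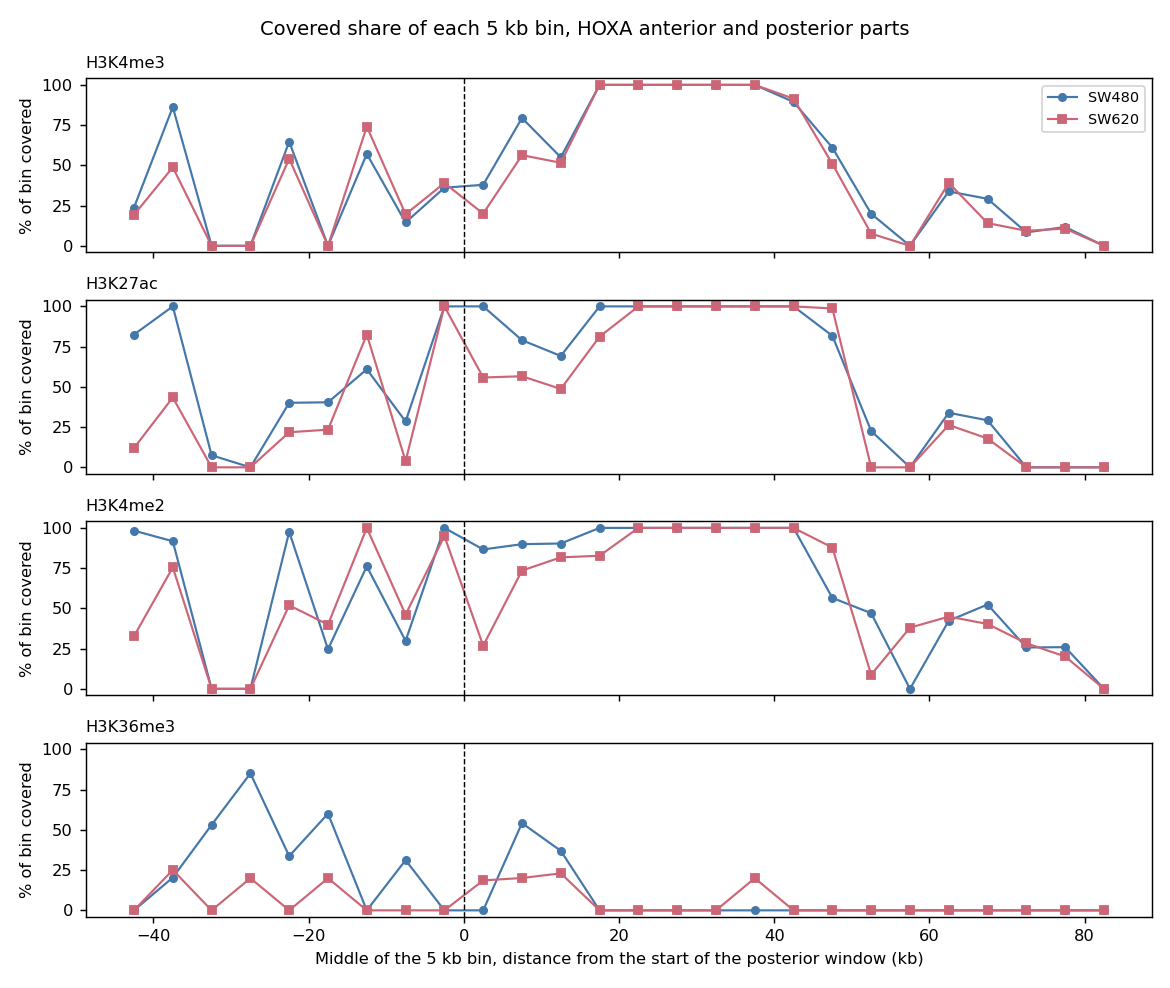
Share of each 5 kb bin covered by regions of H3K4me3, H3K27ac, H3K4me2 and H3K36me3 (top to bottom, in percent) against distance in kb from the start of the posterior window (dashed line), with circles for SW480 and squares for SW620. The 2 lines lie on each other at 100% from 20 to 40 kb for the 3 active marks, and in the first 15 kb of the posterior window SW480 is higher for each of them.

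For each active mark, the longest stretch listed in one line alone lay on the HOXA5 side of the window, in SW480. In the first 5 kb, H3K27ac covered 100% in SW480 and 55.8% in SW620, H3K4me2 86.6% and 26.8%, and H3K4me3 37.9% and 20.0%. H3K4me2 had 2 regions on this side in either line. In SW480 they were 8811 bp (27168510 to 27177320, crossing the window's start) and 6509 bp (27177989 to 27184497), with 668 bp between them. In SW620 they were 4499 bp (27171840 to 27176338, also crossing) and 3673 bp (27180959 to 27184631), with 4620 bp between them. For H3K4me3, SW480 had regions of 2907 bp (27178107 to 27181013) and 2957 bp (27181308 to 27184264). A single SW620 region of 2813 bp (27180333 to 27183145) overlapped both. One SW480 H3K27ac region of 15.4 kb (27168575 to 27183951) ran across the boundary from the anterior part. SW620 had 2 regions there, 7983 bp (27169808 to 27177790) and 2829 bp (27180367 to 27183195). The stretch between them, 2576 bp, is the longest piece of H3K27ac in the window listed in SW480 alone. The longest SW480-only pieces of H3K4me2 (2970 bp, 27177989 to 27180958) and of H3K4me3 (2226 bp, 27178107 to 27180332) lie over the same place. Within this place SW620 listed H3K36me3 along 1001 bp (27179071 to 27180071). Summed over separate pieces of the whole window, 2344 bp had H3K4me3, H3K27ac and H3K4me2 in SW480 and no histone mark in SW620. In the opposite direction, a narrow H3K4me3 region of 1001 bp (27175448 to 27176448) was listed in SW620 alone.

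Past the wide block, towards the HOXA13 end, the marks formed narrower regions at matching places in the 2 lines. The first of these stood clear of the block for H3K4me3, by 2480 bp (SW480) and 2887 bp (SW620). For H3K27ac it nearly joined the block, with a gap of 913 bp (SW480) or 5 bp (SW620). For H3K4me2 the gap was 2173 bp (SW480) or 609 bp (SW620). The first starts 47.0 kb into the window in SW480 and 47.5 kb in SW620, with H3K4me3 from 27221951 to 27225995 in SW480 and from 27222458 to 27225378 in SW620. It carried H3K27ac in both lines, 4295 bp wide in SW480 and 3103 bp in SW620. Its H3K4me2 regions were 4877 bp (SW480) and 3627 bp (SW620) wide. The next starts 63.3 kb in for SW480 and 63.0 kb for SW620, with H3K4me3 of 3149 bp in SW480 (27238312 to 27241460) and 2659 bp in SW620 (27238048 to 27240706), with H3K27ac of 3155 and 2211 bp and H3K4me2 of 4021 and 3063 bp. The last starts 74.6 kb in for SW480 and 74.5 kb in for SW620, with an H3K4me3 region of 1001 bp in either line and no H3K27ac in either list. Its H3K4me2 region was 1711 bp wide (SW480) or 1819 bp (SW620). A site with H3K4me2 as its one mark was listed in both lines, 69.3 kb in and 1581 bp wide for SW480, 68.8 kb in and 1797 bp wide for SW620. At 56.2 kb an H3K4me2 region of 1899 bp (27231246 to 27233144) was listed in SW620 alone, in a gap of 10.5 kb between H3K4me2 regions of SW480. The last 5 kb of the window held no histone region in either line. SW480 had the wider regions of the 3 active marks at the first 2 sites.

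Region by region, 40 of the 45 histone members overlapped a region of the same mark in the other line. For H3K4me3, 0 of 7 SW480 members and 1 of 7 SW620 members were listed in one line alone, where the whole lists have 17.1% and 6.85%. For H3K27ac it was 0 of 4 and 0 of 6, against 32.0% and 26.8%. For H3K4me2 it was 0 of 7 and 1 of 9, against 23.2% and 30.2%. For H3K36me3 it was 1 of 2 and 2 of 3, against 34.3% and 27.9%. The locus was selected on its sharing, and wide regions overlap more readily, so nothing is read from these shares. By length, the bases covered in both lines were 85.1% of all bases covered by H3K4me3 in either, 83.9% for H3K27ac, 77.8% for H3K4me2 and 31.8% for H3K36me3. Over all chromosomes the corresponding values were 67.3%, 48.2%, 52.7% and 49.7%.

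**Figure D3:**
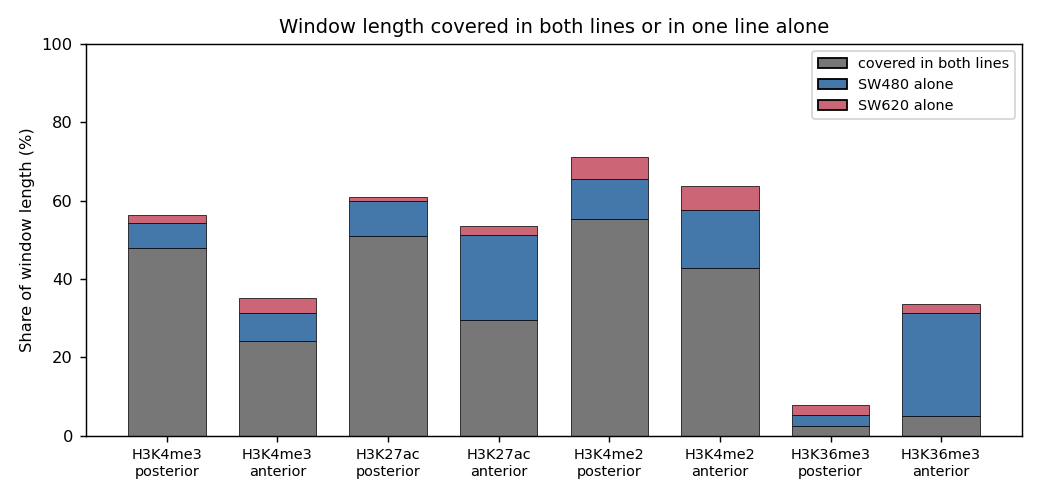
Share of window length (percent) covered in both lines (grey), in SW480 alone (blue) and in SW620 alone (red), for each histone mark in the posterior and the anterior part. Grey makes up most of each posterior bar of the 3 active marks, while the anterior H3K36me3 bar is mostly blue.

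The active marks also lay on the same bases within each line. H3K4me3, H3K27ac and H3K4me2 together covered 44.4 kb in SW480 and 37.8 kb in SW620, and 36.5 kb of the window (42.9%) had all 3 in both lines. A further 22.4 kb had no histone mark in either line. In total 74.4% of the window had the same set of marks in both lines, against 44.3% of the anterior part. These shares include the bases unmarked in both lines, 22.4 of 85 kb in the posterior and 5.37 of 45 kb in the anterior part. The posterior window was selected on its sharing, so this contrast is a description. Bases with H3K4me2 alone made up 4.38 kb in SW480 and 7.01 kb in SW620. Those with H3K4me3 and H3K4me2 and no other mark came to 1.00 kb in SW480 and 3.16 kb in SW620. The SW620 H3K27ac library had the lower share of tags in regions of the pair, and its part in this was not tested.

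H3K36me3 was sparse, and its 1 shared site lay at the HOXA5-side edge of the wide block. In SW480 it ran from 27183291 to 27186849 (3559 bp) and in SW620 from 27184066 to 27186152 (2087 bp), all of which SW480 covered too. It ends before the H3K4me3 block begins, at 27187250 in SW480 and 27187423 in SW620. The other H3K36me3 members were each 1001 bp wide, and these minimal regions were listed in one line alone. They were 27180703 to 27181703 in SW480, and 27179071 to 27180071 and 27212077 to 27213077 in SW620. The last of these was the only H3K36me3 region of either line inside the wide H3K4me3 block. In neither line was H3K36me3 listed beyond 38.1 kb from the window's start, so none lay on the narrower regions at the HOXA13 end.

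FOXA2, a forkhead factor of endoderm and liver, had 3 peaks in the posterior window in SW620 and 0 in SW480. The SW480 library also had the lower share of tags in peaks and the shorter list, 5207 peaks against 12372, and their part in this was not tested. They lay at 27175580 to 27175898, 27217404 to 27217722 and 27222820 to 27223138, which is 0.579, 42.4 and 47.8 kb from the window's start. Each of the 3 overlapped H3K4me3, H3K27ac and H3K4me2 of SW620, a combination found at 10.1% of the 12372 SW620 peaks. The window was selected for its wide H3K4me3, and the 3 marks together covered 37.8 of its 85 kb in SW620, so nothing is read from this. At the positions of these peaks SW480 had all 3 marks at the second and the third peak, and H3K27ac and H3K4me2 but no H3K4me3 at the first. The first peak lies in the H3K4me3 region of 1001 bp that SW620 alone had. They stood at positions 9539, 10324 and 11220 of their list. The anterior part had 1 SW620 peak (27154768 to 27155086), on H3K27ac and H3K4me2 of both lines. FOXA2 peaks are rarely shared between these lists at all: 98.1% of SW620 peaks and 95.5% of SW480 peaks lack a counterpart, so 3 of 3 SW620-only peaks is near the background. The 2 FOXA2 lists were called at unlike peak sizes, 126 bp in SW480 and 318 bp in SW620. Chromosome 7 held 5.63 SW620 and 2.31 SW480 peaks per Mb, and the nearest SW480 peak lay 65.0 kb below the window's start. A count of 0 peaks in a called list sets no limit on binding.

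The anterior part adjoins the HOXA5 end of the posterior window. It had less of the active marks in both lines. H3K4me3 covered 31.4% of it in SW480 and 28.3% in SW620, which is 23.1 and 21.7 percentage points less than in the posterior part. For H3K27ac the anterior shares were 51.1% and 31.9%, lower than the posterior ones by 8.65 points in SW480 and 20.2 points in SW620. The SW480 value was 16.3 points with the outer window ends moved 5 kb inward. For H3K4me2 they were 57.6% and 49.0%, lower by 8.12 and 11.8 points. With regions under 2 kb left out these were 4.25 and 7.49 points, and with the outer ends moved inward the SW480 value was 17.3 points. H3K36me3 had the opposite order in SW480, with 31.5% of the anterior and 5.36% of the posterior part covered, and in SW620 the values were 7.23% and 4.81%. With SW620 regions under 2 kb left out, the SW620 order for H3K36me3 turned, with the posterior share higher by 2.46 points.

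**Figure D4:**
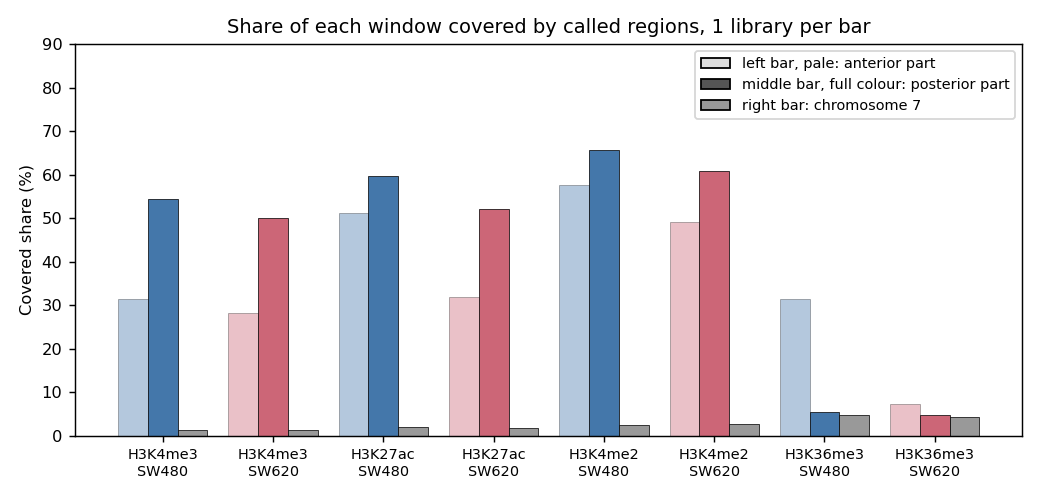
Share covered by called regions (percent) in the anterior part (pale, left bar), the posterior part (full colour, middle bar) and chromosome 7 (grey, right bar) for each histone mark and line, 1 library per bar. The posterior bar is the tallest for H3K4me3, H3K27ac and H3K4me2 in both lines, and the anterior bar is the tallest for H3K36me3.

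The 2 lines also parted more in the anterior than in the posterior part. The length covered in SW620 relative to SW480 was 0.624 for anterior H3K27ac and 0.872 for posterior H3K27ac, and 0.87 over all chromosomes. For H3K36me3 it was 0.230 in the anterior part (3.25 kb against 14.2 kb), 0.897 in the posterior part and 0.934 over all chromosomes. For H3K4me3 the ratios were 0.902, 0.919 and 0.895 in the same order, and for H3K4me2 0.851, 0.925 and 1.08. The SW480 H3K36me3 regions of the anterior part numbered 5 and those of SW620 numbered 3. No test of the difference between the parts was possible with 1 library per line. The posterior window was also selected on its sharing between the lines, so nothing is read from this order of the parts.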

How the data were processed

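Enriched regions of 10 libraries (2 lines, 5 antibodies, 1 library each) were used as deposited. Per the file headers, the authors called them with HOMER findPeaks in each library against the input of the same line. Histone regions needed at least 4-fold enrichment (a ratio) over input and over the local background, at a false discovery rate of 0.001 and a region size of 1000 bp, and FOXA2 peaks at least 2-fold. The FOXA2 peak size was 126 bp in SW480 and 318 bp in SW620, with minimum distances between peaks of 252 and 636 bp. Positions refer to hg19, as the submitters' processing notes name it. No aligner and no HOMER version are given in the sources used. The other values used were start and end positions in bp. In the deposited lists the score was always 1, so it was set aside.

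Regions were cut at the window, joined within a list where they overlap, and compared between lines by overlaps of at least 1 bp, with Python 3.11.15, numpy 2.4.6 and pandas 2.3.3. Overlap counts were checked against bedtools 2.31.1, and the functions were tested on 200 simulated sets of regions with 0 wrong answers. Figures used matplotlib 3.10.9. No test was made between groups of 1 library. All 7 members and the regions that overlap the window were to be named. The members, windows and comparisons were chosen with earlier results of these data known. RefSeq tables of GRCh38.p14 gave names, order and promoter sequences only, and covered length per gene was not analysed here. Alternatives moved window ends, cutting, joining, list length, minimum width and the overlap rule. A value counted as moved when it differed by over 1.5 times.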

Additional observations from a re-analysis of the deposited data

How the results depend on the processing

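Over the alternatives tried, 47 of 48 covered lengths in the posterior window stayed within 1.5 times the reported value, as did all 16 counts of shared regions, both FOXA2 counts and all 10 lengths with the 3 active marks together. The sign of the difference between the lines was kept in all 24 cases, with SW480 covering more. Several of these alternatives could not change the value. Moving the outer window ends left all posterior lengths as they were, since no histone region lies within 5 kb of the posterior window's outer end. Counting regions whole could not change H3K4me3 or H3K36me3, and equal list length could not change the shorter list. The SW620 H3K27ac count of shared regions went from 6 to 4 with overlap of 50% of both regions, at the 1.5 limit. With regions under 2 kb left out, SW620 minus SW480 came to -6419 bp for H3K4me2 and -1472 bp for H3K36me3, and the H3K36me3 length of SW620 was 2087 bp, since its regions of 1001 bp were dropped. With regions counted whole, not cut at the window, the H3K4me2 difference was -7526 bp, as 1 region of each line crosses the edge. Posterior minus anterior share turned for H3K36me3 in SW620 when regions under 2 kb were left out (2.46 points). The same setting gave 4.25 points for SW480 and 7.49 points for SW620 H3K4me2. With the outer window ends moved 5 kb inward, SW480 had 16.3 points for H3K27ac and 17.3 points for H3K4me2. Covered length per gene was not run. The 1 library per group, the absence of a signal per region and the unequal shares of tags in regions limit all comparisons between the lines. No paired analysis was possible because each group has 1 library and no replicate number.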

Other observations

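Past the outer edge of the posterior window, on the HOXA13 side, the active marks went on more sparsely. HOTTIP, EVX1-AS and EVX1 follow HOXA13 in gene order, and their hg19 positions were not determined here. In the 85 kb after the posterior window (27260001 to 27345000), H3K4me3 covered 3.54 kb in SW480 and 3.07 kb in SW620. Both lines had 2 H3K4me3 regions there, the wider from 27281107 to 27283393 in SW480 and the one at the same place from 27281287 to 27282805 in SW620. H3K27ac of SW480 (27281368 to 27283224) overlapped this site, and so did that of SW620 (27282555 to 27283853). The other H3K4me3 region, 1251 bp in SW480 (27274461 to 27275711) and 1547 bp in SW620 (27274115 to 27275661), had H3K4me2 and no H3K27ac in either line. H3K36me3 was listed in neither line in these 85 kb, and SW620 had 1 FOXA2 peak at 27307056 to 27307374.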
